A study of Mus musculus with 14 samples.

Results

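The superior colliculus of saline-injected mouse pups was compared between its superficial and its deep layers at postnatal day 6. The comparison rests on 6 of the series' 14 bulk RNA-seq libraries, 3 titled as superficial and 3 as deep after saline, chosen by their titles alone. All came from ICR/CD-1 pups that had received saline into the vitreous of the eye at postnatal day 0 to 1, so both layers carry the anaesthesia and the injection, and no library here comes from an uninjected pup. Each library held microdissected tissue of 3 pooled brains. The other 8 libraries, 4 in each layer, received carbenoxolone (cbx), a blocker of gap junctions, by the same route. They share in the choice of genes to test, the scaling and the estimate of the spread, and enter 1 comparison at the end. The labels give no sex and no depth of the cut between the layers. They do not say that libraries of the same number came from the same brains, although these deviated together.

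The superior colliculus is part of the roof of the midbrain. Its superficial layers lie under the pia, receive the axons of retinal ganglion cells and hold small GABAergic and glutamatergic neurons that respond to vision. The deep layers receive touch, sound and cortical input, and contain larger projection neurons that drive head and eye movements through the brainstem and spinal cord. In the first postnatal week astrocytes and oligodendrocyte precursors still multiply and myelin is only starting to form.

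The saline libraries held 33180530 to 37841432 counts. Values are given as CPM, counts scaled to the library's total with TMM factors, or as a log2 difference, which is positive where the superficial layer was higher. A gene is said to be called, or to differ, when its adjusted p from edgeR's quasi-likelihood test with Benjamini-Hochberg adjustment was below 0.05. Since each library is a pool, the p-values reflect how pools varied and not how single pups varied. The gene lists used below were chosen with earlier results of these data known. Their counts and medians describe the chosen genes and are not an independent test of a direction. The first principal component of the 6 libraries, with 59.3% of the variance of 1000 genes, separated the layers. Mitochondrial transcripts took 2.97% to 3.48% of counts in superficial and 4.08% to 4.48% in deep libraries, without overlap, and the part of this in the results was not tested. Xist, the transcript of the inactive X chromosome, was at 1.94 and 0.572 CPM in the superficial and deep library of number 1 and at 187 CPM or more in the other 4, so pools differed in sex while both layers of a number were alike.

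Of 20330 genes with enough counts to test, 3739 (18.4%) were called, 1965 (9.67%) higher in the superficial and 1774 (8.73%) higher in the deep layer. The median log2 difference over all genes was 0.04, and the median size among called genes was 0.57. The 3 superficial values all lay above the 3 deep ones in 20.2% of tested genes, and all below them in 16.5%. Differences of at least 2-fold were more frequent towards the superficial side, with 618 genes (3.04%) against 332 (1.63%), and those of at least 8-fold numbered 98 against 19. With the replicate block in the 6 saline libraries alone, libraries of 1 number form a pair and 2 residual degrees of freedom are left. In that fit 6777 of 18787 tested genes were called, 3190 superficial and 3587 deep. A list's count of calls in that fit is given where it reaches 5 and is over 1.5 times the count given first. The share of calls on the superficial side depended on the scaling. It was 52.6% with TMM factors, 69.1% with total counts only and 39.9% after trends with transcript length and GC content were removed.

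Among the 15 protein-coding genes with the largest superficial differences, many are known from the coverings of the brain. They were led by Gfap, the intermediate filament of astrocytes, and held the meningeal genes Ogn, Slc13a4, Ptgds, Fmod, Aldh1a2 and Igf2, the macrophage genes Pf4, Fcna and Lyve1, and Bmp6. Gfap (ENSMUSG00000020932) measured 538, 462 and 366 CPM in superficial libraries 1, 2 and 3, against 8.65, 6.103 and 5.45 CPM in deep libraries 1, 2 and 3. Every superficial library was far above every deep one. The 15 largest deep differences held instead transcription factors of neurons, among them Onecut3, Pou4f3, Pou4f2, Esrrb and Tfap2d, with the sialidase Neu4, the receptor Npy2r and the peptide precursor Nts. The 10 most abundant deep genes with at least a 2-fold difference included the neurofilament genes Nefl and Nefm, the microtubule protein Map1a, the vesicle protein Vamp1 and the oligodendrocyte receptor Gpr17. The 10 on the superficial side included Sparcl1, Aqp4 and Tnc, made by astrocytes, and Nrp2, a semaphorin receptor.

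**Figure D1:**
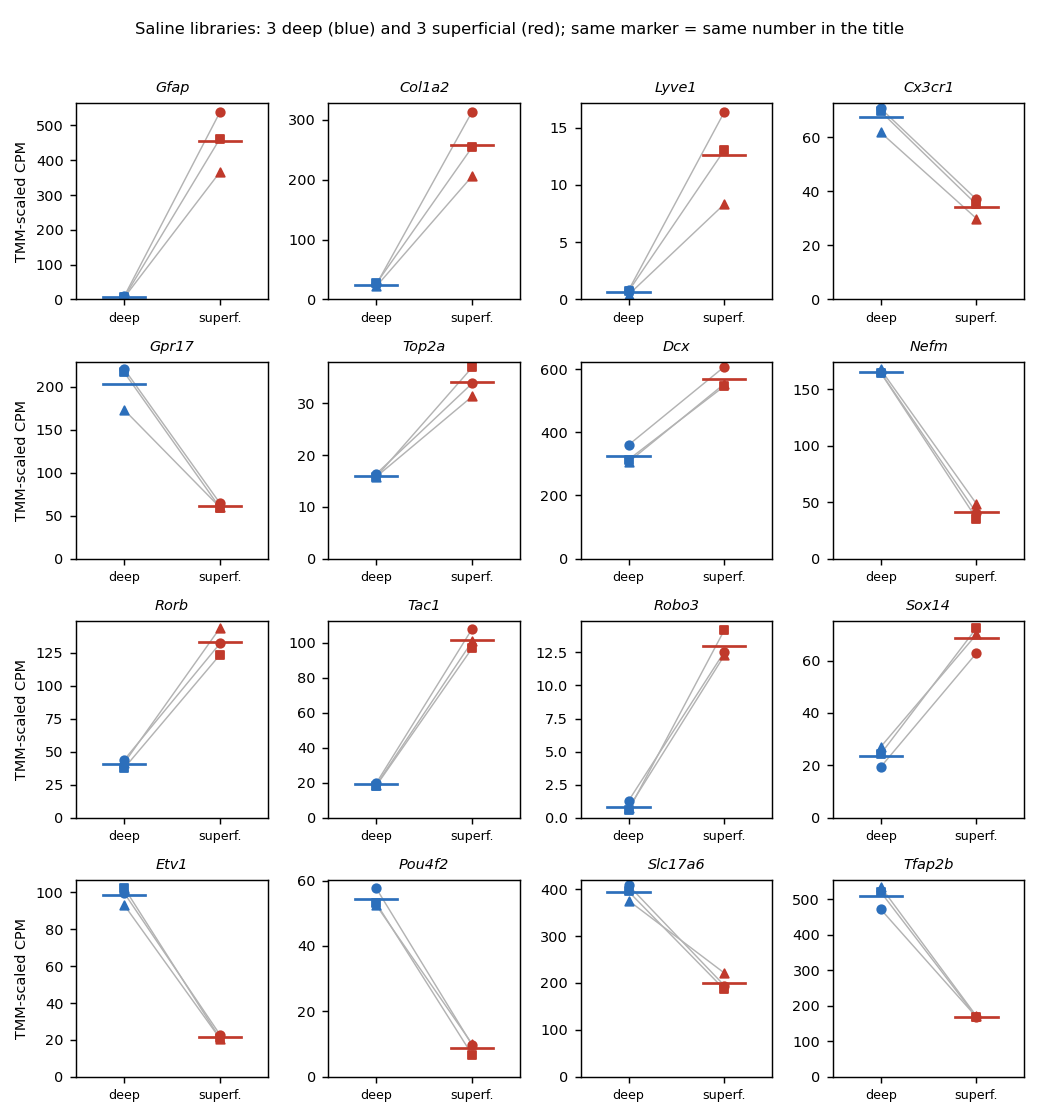
TMM-scaled CPM (vertical axis, linear from 0) of 16 genes in the 3 deep (blue) and 3 superficial (red) saline libraries; lines join libraries of the same number and horizontal bars are means. In none of the 16 panels do the layers overlap, and Gfap is near 0 in all deep libraries.

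The tissue labels were checked against markers before the neurons were compared. Hox genes, which mark hindbrain and spinal cord, summed to at most 0.284 CPM over 13 genes in any saline library and none reached the minimum for a test. Markers of ependyma and choroid plexus summed to 19.1 to 22.99 CPM in superficial and 16.2 to 17.7 CPM in deep libraries, and those of the pineal gland to at most 9.43 CPM. Midbrain genes were present in both layers, with Pax7, a factor of the dorsal midbrain, at 161, 164 and 159.6 CPM in superficial and 116, 99.7 and 104 CPM in deep libraries. Pax7 was higher in each superficial library than in any deep one (log2 difference 0.60, SE 0.07, edgeR adjusted p = 2.36e-06).

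A pair of superficial libraries stood apart from their group in genes of other tissue. Superficial library 1 carried myelin transcripts. Mobp, a protein of compact myelin, measured 15.8, 0.413 and 0.211 CPM in superficial and 0.827, 0.242 and 0.303 CPM in deep libraries. Mbp, the main myelin protein on the inner face of the membrane, measured 177, 57.02 and 54.9 CPM against 118, 101 and 92.6 CPM. In both genes superficial library 1 was far above the other superficial libraries, and it was also above every deep library. Superficial library 3 carried forebrain transcripts. Emx1, a factor of the dorsal telencephalon, measured 0.0571, 0.129 and 1.08 CPM in superficial and 0.223, 0.211 and 0.0551 CPM in deep libraries, and Slc17a7, the vesicular glutamate transporter of cortical neurons, 1.66, 2.63 and 9.35 CPM against 2.92, 3.05 and 2.98 CPM. Superficial library 3 was the highest of the 6 in both. Results on myelin and on cortical genes are therefore also given without these libraries.

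**Figure D2:**
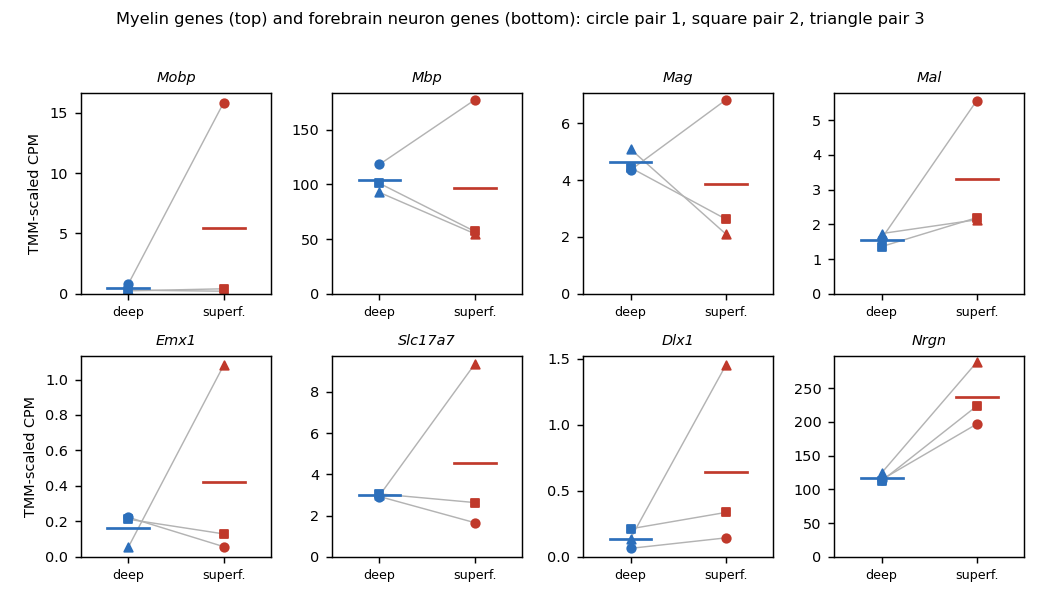
TMM-scaled CPM (vertical axis, linear from 0) of 4 myelin genes (top) and 4 genes of forebrain neurons (bottom) in the saline libraries, blue for deep and red for superficial, with 1 marker shape per library number and bars for means. The circle of superficial library 1 lies above the other 2 superficial libraries in the myelin genes, and the triangle of superficial library 3 is the highest point in the forebrain genes.

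Neuron types differed in both directions. Of 17 tested genes listed for neurons of the superficial colliculus, 8 were higher in the superficial and 6 in the deep layer, so the list as a whole did not follow its name. Rorb (ENSMUSG00000036192), a nuclear receptor of visual relay neurons, measured 132, 124 and 144 CPM in superficial and 43.8, 37.5 and 41.5 CPM in deep libraries (log2 difference 1.70, SE 0.10, edgeR adjusted p = 3.35e-10). Tac1, which encodes substance P, measured 108, 96.9 and 101 CPM against 19.8, 18.3 and 18.8 CPM (log2 difference 2.42, SE 0.13, edgeR adjusted p = 4.29e-10). For both genes the lowest superficial library was more than 2-fold above the highest deep one. The precursor of neuropeptide Y, Npy, differed by 2.85 (SE 0.19), the gastrin-releasing peptide gene Grp by 1.47 (SE 0.19) and the calcium buffer Calb1 by 0.78 (SE 0.13), all towards the superficial layer.

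The 6 listed genes that were higher in the deep layer included 4 that differed by over 2-fold. Etv1 (ENSMUSG00000004151), an ETS transcription factor, measured 22.9, 20.9 and 20.8 CPM in superficial and 99.8, 103 and 93.2 CPM in deep libraries (log2 difference -2.20, SE 0.07, edgeR adjusted p = 3.59e-13). Tfap2b, a transcription factor of the AP-2 family, measured 168, 168 and 171 CPM against 472, 521 and 536 CPM (log2 difference -1.59, SE 0.07, edgeR adjusted p = 8.65e-12). Deep libraries exceeded superficial ones throughout for both genes. The synapse organizer Cbln2 differed by -2.04 (SE 0.12) and the neurotensin receptor Ntsr1 by -1.45 (SE 0.15). In bulk tissue, a layer with fewer cells of a type and a layer whose cells hold less of its RNA cannot be told apart, here and below.

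Factors of glutamatergic neurons of the tectum were mostly higher in the deep layer. Of 12 listed genes, 8 were higher there and 1 in the superficial layer, with a median log2 difference of -0.74. The Brn3 factors, POU-domain proteins of projection neurons, shared this direction. Pou4f2 (Brn3b, ENSMUSG00000031688) measured 9.71, 6.73 and 10.01 CPM in superficial and 57.6, 53.05 and 52.4 CPM in deep libraries (log2 difference -2.62, SE 0.15, edgeR adjusted p = 6.54e-10). Pou4f1 (Brn3a) differed by -1.52 (SE 0.09) and Pou4f3 (Brn3c) by -3.46 (SE 0.33). Barhl2, another homeodomain factor, differed by -1.88 (SE 0.13). The related Barhl1, which is not in this list, was higher in the superficial layer, at 1.315 (SE 0.09). Slc17a6, the vesicular glutamate transporter of subcortical neurons, measured 194, 186 and 221 CPM against 408, 395 and 376 CPM (log2 difference -0.97, SE 0.08, edgeR adjusted p = 1.53e-08), with every deep library above every superficial one. Ebf2, a helix-loop-helix factor, was the listed gene on the superficial side, at 0.74 (SE 0.11).

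Genes listed for thalamic and pretectal neurons gave 2 superficial and 4 deep calls of 13, with a median of 0.15, and 6 superficial calls with the block in the saline libraries alone. On the superficial side were the forkhead factor Foxp2 (0.40, SE 0.09) and Plekhg1 (0.55, SE 0.17). On the deep side were the kinase Prkcd (-0.78, SE 0.09), the calcium buffer Calb2 (-0.38, SE 0.13), Irx3 (-0.46, SE 0.11) and Tcf7l2, which had the smallest p of the list. The call of Calb2 was lost when any single saline library other than superficial library 3 was left out (edgeR adjusted p = 0.0809 to 0.181), and that of Plekhg1 without deep library 2 or 3 or superficial library 1 or 2 (edgeR adjusted p = 0.0518 to 0.179). Tcf7l2, a Wnt effector listed here for thalamic and pretectal neurons, measured 22.2, 20.1 and 22.3 CPM against 107, 96.04 and 107 CPM (log2 difference -2.26, SE 0.10, edgeR adjusted p = 1.04e-11). Which cells carried its transcripts was not tested.

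Factors of midbrain GABAergic neurons were mostly on the other side. Of 13 tested, 9 were higher in the superficial and 1 in the deep layer, with a median of 0.82. Sox14 (ENSMUSG00000053747) measured 62.9, 72.5 and 70.03 CPM in superficial and 19.4, 24.3 and 27.1 CPM in deep libraries (log2 difference 1.54, SE 0.12, edgeR adjusted p = 4.08e-08). Otx2, which patterns the midbrain and persists in some GABAergic neurons, measured 188, 195 and 202 CPM against 61.2, 58.4 and 67.05 CPM (log2 difference 1.65, SE 0.09, edgeR adjusted p = 1.34e-10). Superficial values lay above all deep values for both. Dmbx1 differed by 1.57 (SE 0.10), Lhx1 by 1.27 (SE 0.10), Lhx5 by 0.93 (SE 0.10) and Tal1, a selector of midbrain GABAergic fate, by 0.71 (SE 0.07). Gata2, which acts upstream in the same fate, measured 11.7, 10.3 and 12.5 CPM against 8.96, 11.1 and 12.2 CPM, with overlapping layers and no call. Nkx2-2, at -0.59 (SE 0.14), was the listed gene on the deep side, and it is also listed for oligodendrocyte precursors.

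The enzymes and receptors of GABA did not move as 1 group. Gad1, which makes GABA, measured 544, 575 and 562 CPM in superficial and 274, 286 and 304 CPM in deep libraries (log2 difference 0.96, SE 0.07, edgeR adjusted p = 9.51e-09). Gad2, the other GABA-making enzyme, measured 145, 147 and 146 CPM against 142, 141 and 151 CPM, and its layers overlapped (log2 difference 0.01, SE 0.07, edgeR adjusted p = 0.932). The vesicular transporter Slc32a1 did not pass either (log2 difference 0.21, SE 0.12, edgeR adjusted p = 0.292), but it was called higher in the superficial layer with the replicate block, at 0.21 (edgeR adjusted p = 0.0495), with that block in the 6 saline libraries alone, at 0.18 (edgeR adjusted p = 0.000644), and in those libraries without it, at 0.18 (edgeR adjusted p = 0.0369). Among 28 genes of GABA and glycine transmission, 2 were higher in the superficial and 8 in the deep layer, and the deep count was 5 without deep library 1 or without superficial library 2 and 16 with the block in the saline libraries alone. The deep side held the GABA transporter Slc6a11 at -0.86 (SE 0.08) and the glycine receptor subunit Glra3 at -0.97 (SE 0.11).

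Glutamate receptors and transporters were more often higher in the deep layer, with 14 of 26 genes called there and 1 in the superficial layer, a median of -0.27. The deep count fell to 9 without superficial library 2, and with total counts as the scaling. Metabotropic receptors led, with Grm2 at -1.09 (SE 0.12), Grm8 at -0.67 (SE 0.09) and Grm4 at -0.60 (SE 0.07). Gria1, an AMPA receptor subunit, was on the superficial side at 0.45 (SE 0.08). Acetylcholine receptor subunits split between the layers. Chrna3, Chrna5 and Chrnb4, which lie next to each other in the genome and can form 1 receptor, were higher in the superficial layer, at 1.08 (SE 0.10), 1.39 (SE 0.18) and 1.19 (SE 0.28). Chrnb3, at -1.42 (SE 0.24), and Chrna4, at -0.48 (SE 0.07), were higher in the deep layer.

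Neuropeptide precursors were found on both sides. The list made for them gave 8 deep and 2 superficial calls of 19, with a median of -0.61, but it leaves out Tac1, Npy, Grp and Vip, which were counted above with superficial collicular neurons and were all higher in the superficial layer, Vip at 1.64 (SE 0.42). No direction is therefore given for precursors as a whole. Nts, the neurotensin precursor, measured 0.857, 0.542 and 0.553 CPM in superficial and 4.101, 4.32 and 3.94 CPM in deep libraries, without overlap (log2 difference -2.66, SE 0.29, edgeR adjusted p = 1.68e-06). The dynorphin precursor Pdyn differed by -2.20 (SE 0.17), Cartpt by -2.11 (SE 0.20) and the precursor of PACAP, Adcyap1, by -1.56 (SE 0.23). Pnoc, the nociceptin precursor, was on the superficial side at 0.98 (SE 0.13), as was Cck, the cholecystokinin precursor, at 0.66 (SE 0.16). Ddc, an enzyme that makes amines, was called among 9 tested genes of monoamine neurons, at -1.65 (SE 0.20). That list summed to 18.3 to 20.4 CPM in superficial and 28.2 to 30.6 CPM in deep libraries.

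Genes listed for cortical and hippocampal neurons gave 4 superficial and 3 deep calls of 13, and their median log2 difference was 0.11, -0.21 and 1.22 in pairs 1, 2 and 3. Pair 3 holds the superficial library with forebrain transcripts, so no direction is given for this list. Without superficial library 3 the calls were 3 and 3 and the median was -0.05. Lhx6, a factor of GABAergic interneurons, was higher in all 3 superficial libraries, with 1.199, 2.14 and 1.48 CPM against 0.0954, 0 and 0.193 CPM (log2 difference 3.98, SE 0.55, edgeR adjusted p = 2.63e-05). Library 3 was not the highest of them. Neurod6, a factor of glutamatergic neurons, was higher in the deep layer at -1.70 (SE 0.18), as was Bcl11b at -0.87 (SE 0.08).

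Patterning genes of the dorsal midbrain were on the superficial side, with 9 of 16 called there and 0 in the deep layer, a median of 0.43. Zic2, a zinc finger factor of the dorsal neural tube and of meningeal cells, measured 42.8, 42.8 and 39.8 CPM in superficial and 9.76, 11.6 and 11.2 CPM in deep libraries, with no overlap (log2 difference 1.94, SE 0.11, edgeR adjusted p = 2.51e-10). Zic5 differed by 2.55 (SE 0.22) and Msx1 by 2.69 (SE 0.53). Bmp6, the signal of the roof, measured 46.4, 40.01 and 31.1 CPM against 2.16, 2.05 and 1.76 CPM (log2 difference 4.30, SE 0.30, edgeR adjusted p = 3.60e-07), and the superficial libraries were in the same order as in the meningeal genes below. Ventral midbrain factors gave 0 superficial and 4 deep calls of 7. Nkx2-2, given above, was one of them, and it is also a member of the list of oligodendrocyte precursors, which were on the deep side. Irx3 (-0.46, SE 0.11) and Irx5 (-0.46, SE 0.10) had small differences and lost their calls against a fold of 1.2 (edgeR adjusted p = 0.107 and 0.086). Nkx6-2 had 1 read in the 3 superficial libraries together and 28 in the deep ones, a ratio of CPM without TMM factors of 29.4 with a 95% exact interval of 4.86 to 1201 that covers counting error only. Its call (edgeR adjusted p = 0.0450) was lost with any saline library or pair left out, at adjusted p of 0.0674 to 0.27.

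**Figure D3:**
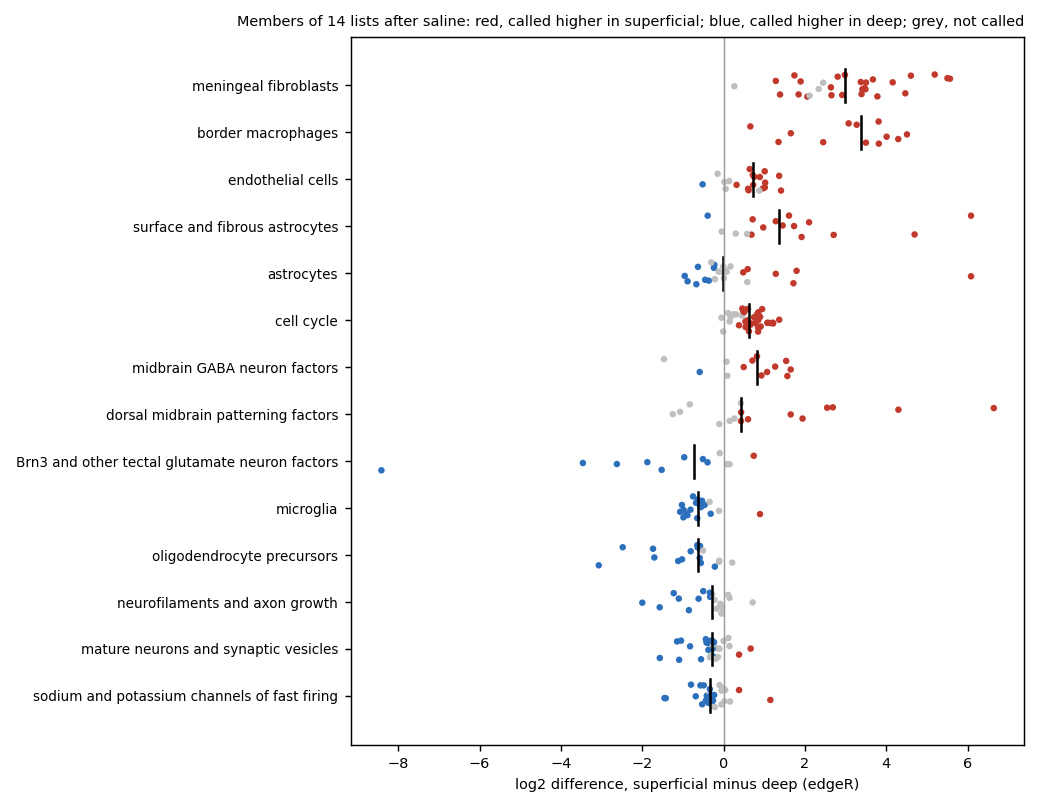
Log2 differences (superficial minus deep, edgeR) of every tested member of 14 gene lists; red points were called higher in the superficial layer, blue in the deep layer, grey were not called, and vertical bars are list medians. The meningeal and border macrophage lists sit furthest to the superficial side, at medians of 2.98 and 3.38, and the Brn3 list furthest to the deep side, at -0.74.

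Genes of dividing cells were higher in the superficial layer. Of 40 cell cycle genes 31 were called there and 0 in the deep layer, with a median log2 difference of 0.62 against 0.04 over all genes. Many genes of mitosis carry CCAAT boxes and a cell cycle homology element, here searched as TTTGAA, in their promoters. The stretches of 250 bases before the start of Cdk1, the mitotic kinase, Ccnb2, a B-type cyclin, and Top2a, the topoisomerase that separates chromosomes, are shown because these called genes hold both motifs. Letters run 5′ to 3′ on the gene's strand, and capitals mark CCAAT or its reverse complement ATTGG and TTTGAA or its reverse complement TTCAAA, which do not overlap in these stretches.
Cdk1: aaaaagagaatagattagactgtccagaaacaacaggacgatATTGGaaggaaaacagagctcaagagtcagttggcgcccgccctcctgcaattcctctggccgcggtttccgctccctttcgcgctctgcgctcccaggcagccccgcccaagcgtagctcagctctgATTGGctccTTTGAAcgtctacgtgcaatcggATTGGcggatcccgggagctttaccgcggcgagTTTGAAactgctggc
Ccnb2: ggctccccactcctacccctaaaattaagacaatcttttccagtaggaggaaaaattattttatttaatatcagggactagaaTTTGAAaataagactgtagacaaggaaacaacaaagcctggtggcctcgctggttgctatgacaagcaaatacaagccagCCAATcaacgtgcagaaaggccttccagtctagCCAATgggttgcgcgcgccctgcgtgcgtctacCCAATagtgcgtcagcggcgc
Top2a: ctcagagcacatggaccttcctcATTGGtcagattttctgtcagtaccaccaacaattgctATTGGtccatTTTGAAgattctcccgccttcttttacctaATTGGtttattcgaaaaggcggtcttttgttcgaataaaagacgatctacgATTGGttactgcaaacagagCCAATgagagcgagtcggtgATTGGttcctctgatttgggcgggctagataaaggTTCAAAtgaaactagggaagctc
They lie on the minus strand of GRCm38.p6 at chr10:69352913-69353162, chr9:70421555-70421804 and chr11:99024190-99024439, and come from RefSeq. RefSeq promoters, in windows of 300 bases from 250 before to 50 after the start, were matched for 25 of the 31 called genes and gave 27 promoters. CCAAT on either strand was in 88.9% of them, TTTGAA in 55.6% and both in 55.6%. The 34 promoters of the whole tested list, called genes included, gave 82.4%, 50% and 50%. Among 16799 promoters of all tested genes the shares were 36.8%, 12.5% and 4.9%, and among 32851 promoters of all genes 37.4%, 17.9% and 6.95%. A match is a description of letters in these windows.

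Top2a (ENSMUSG00000020914) measured 33.8, 36.9 and 31.3 CPM in superficial and 16.4, 15.8 and 15.8 CPM in deep libraries (log2 difference 1.09, SE 0.12, edgeR adjusted p = 1.63e-06). Cdk1 measured 13.8, 13.4 and 14.1 CPM against 7.09, 6.13 and 8.18 CPM (log2 difference 0.95, SE 0.12, edgeR adjusted p = 7.68e-06), and Ccnb2 7.68, 6.48 and 6.24 CPM against 3.15, 3.05 and 3.47 CPM (log2 difference 1.07, SE 0.16, edgeR adjusted p = 4.50e-05). All 3 genes had superficial values well above the deep ones, with little spread inside a layer. Aurkb, a kinase of the dividing chromosomes, differed by 1.37 (SE 0.17), Ccnd2, a G1 cyclin, by 1.22 (SE 0.09), and Bub1b, a checkpoint gene, by 1.21 (SE 0.17). Genes of DNA replication had smaller differences, with Mcm3 at 0.53 (SE 0.09), Mcm7 at 0.58 (SE 0.08) and Rrm1 at 0.46 (SE 0.07). The sum of the list was 654 to 723 CPM in superficial and 445 to 461 CPM in deep libraries. Meningeal, vascular and surface astrocyte genes were on the same side, the meningeal list at 1095 to 1717 against 158 to 178 CPM in sum, and which cells carried the transcripts was not tested.

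Genes of young neurons split. Dcx (ENSMUSG00000031285), a microtubule protein of migrating neurons, measured 608, 546 and 554 CPM in superficial and 360.0, 314 and 306 CPM in deep libraries (log2 difference 0.80, SE 0.09, edgeR adjusted p = 1.94e-06). Sox11, a factor of newly formed neurons, measured 306, 309 and 290.1 CPM against 173, 163 and 173 CPM (log2 difference 0.83, SE 0.07, edgeR adjusted p = 4.35e-08). In both, the layers were apart. Igfbpl1 (1.08, SE 0.14) and Sox4 (0.56, SE 0.07) were also higher in the superficial layer. Gap43, a protein of growing axons, was higher in the deep layer, with 468, 495 and 615 CPM against 816, 864 and 914 CPM (log2 difference -0.72, SE 0.11, edgeR adjusted p = 6.95e-05), as was the factor Nhlh2 at -1.19 (SE 0.21). The whole list held 5 superficial and 6 deep calls of 25, and its median changed sign with the scaling, so it has no direction. The deep count was 3 without superficial library 1 or 2 and 10 with the block in the saline libraries alone.

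Genes of mature neurons were mostly higher in the deep layer. Among 30 genes of synaptic vesicles and mature neurons, 17 were higher there and 2 in the superficial layer, with a median of -0.29. Syt2, the calcium sensor of fast synapses, measured 39.6, 33.3 and 40.1 CPM in superficial and 118, 110.1 and 108 CPM in deep libraries (log2 difference -1.57, SE 0.10, edgeR adjusted p = 1.66e-09). Syt1, the related sensor of forebrain-type synapses, went the other way, with 698, 614 and 629 CPM against 449.5, 398 and 377 CPM (log2 difference 0.66, SE 0.08, edgeR adjusted p = 2.57e-06). Neither gene's layers overlapped. Vamp1 differed by -1.09 (SE 0.08) and Syn2 by -0.83 (SE 0.07). The general neuronal genes Rbfox3, which encodes NeuN, and Snap25 did not pass, with log2 differences of -0.14 (SE 0.07) and 0.12 (SE 0.09), although Rbfox3 was called higher in the deep layer with the block in the saline libraries alone (-0.17, edgeR adjusted p = 0.00178).

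Neurofilaments, which fill large axons, showed the same side. Nefm (ENSMUSG00000022054) measured 40.4, 35.3 and 48.4 CPM in superficial and 165, 164 and 167 CPM in deep libraries (log2 difference -2.0, SE 0.15, edgeR adjusted p = 2.01e-07). Every deep library held over 3-fold the CPM of every superficial one. Nefh differed by -1.57 (SE 0.12) and Nefl by -1.23 (SE 0.10). Kif1a and Kif5a, motors of axonal transport, differed by -0.85 (SE 0.15) and -0.62 (SE 0.10). Of 19 listed genes 9 were called in the deep and 0 in the superficial layer.

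Ion channel genes followed, with 17 of 28 listed higher in the deep and 2 in the superficial layer and a median of -0.33. The deep count was 11 without deep library 1 and 10 without superficial library 2. Kcnc4, a potassium channel subunit of the Kv3 family, measured 44.3, 44.7 and 45.01 CPM in superficial and 118, 119.9 and 122 CPM in deep libraries (log2 difference -1.42, SE 0.08, edgeR adjusted p = 2.51e-10). Deep values were all higher. Kcnc1 and Kcnc2 were also called in the deep layer, and kept their calls in 11 and 20 of 21 alternative settings. The sodium channel Scn2a differed by -0.57 (SE 0.11), while Kcnab1, a channel subunit, was on the superficial side at 1.15 (SE 0.12). Genes of nodes and paranodes, where channels gather along axons, were called in the deep layer for 5 of 11 and in the superficial layer for 0, and in the deep layer for 9 with the block in the saline libraries alone, with Cntnap1 at -0.82 (SE 0.14) and Cntn1 at -0.63 (SE 0.09). Acan, the core protein of perineuronal nets, was higher in the deep layer (-1.51, SE 0.16), as was its link protein Hapln4 (-0.70, SE 0.12), whereas Ncan (0.53, SE 0.08) and Tnc (2.10, SE 0.18) were higher in the superficial layer.

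**Figure D4:**
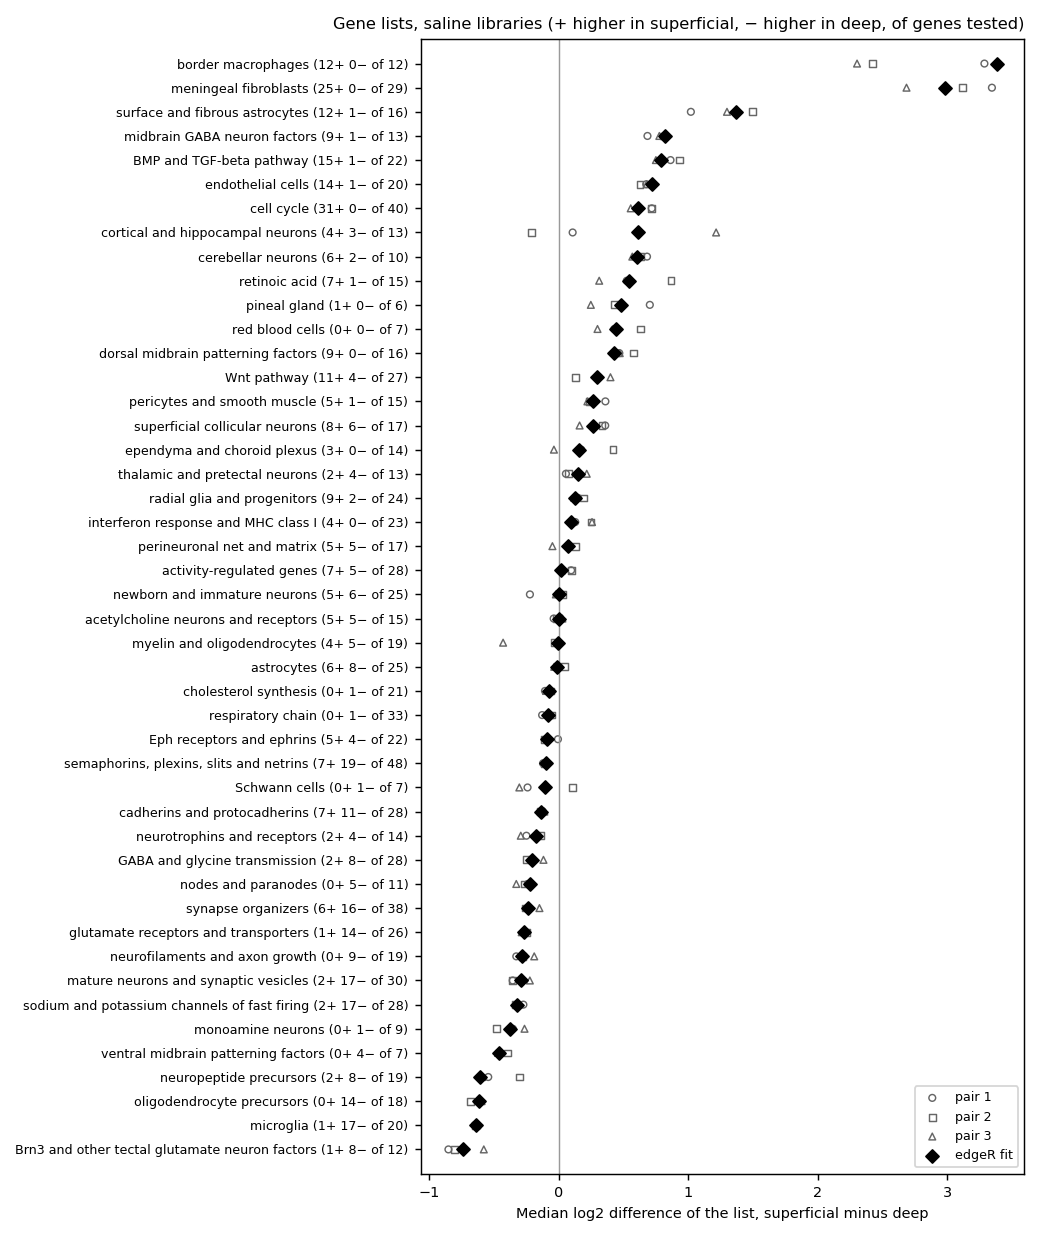
Median log2 difference (superficial minus deep) of each gene list with tested genes, as the edgeR fit gives it (diamonds) and within each same-numbered pair of libraries (open symbols); the row labels give calls on each side and genes tested. Cortical and hippocampal neurons show the widest split between pairs near the centre, from -0.21 to 1.22, while the border lists stay on the superficial side in all 3 pairs.

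Astrocyte genes split between the layers. Of 25 astrocyte genes, 6 were higher in the superficial and 8 in the deep layer, and the deep count was 5 without deep library 1 or superficial library 2. Slc1a3, the glutamate transporter of most young astrocytes, measured 635, 606 and 561 CPM in superficial and 629, 559.7 and 522 CPM in deep libraries and did not pass (log2 difference 0.07, SE 0.09, edgeR adjusted p = 0.656). Its layers overlapped. Sparcl1, a secreted protein that promotes synapses, measured 1127, 899 and 907 CPM against 328, 289 and 276 CPM (log2 difference 1.72, SE 0.09, edgeR adjusted p = 1.26e-10), and Aqp4, the water channel of astrocyte endfeet, differed by 1.28 (SE 0.14). On the deep side were S100b (-0.96, SE 0.10), Gpr37l1 (-0.89, SE 0.09), Clu (-0.67, SE 0.09) and the amino acid transporter Slc7a10 (-0.63, SE 0.07).

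The list of surface and fibrous astrocytes, the kind that forms the limiting layer under the pia, was on the superficial side with 12 of 16 called there and 1 in the deep layer, at a median of 1.37. Gfap, the leading gene given above, is a member. Vim, an intermediate filament shared with fibroblasts and vessels, measured 264, 253 and 242 CPM in superficial and 78.2, 77.1 and 73.2 CPM in deep libraries, without overlap (log2 difference 1.73, SE 0.08, edgeR adjusted p = 8.76e-12). The matrix protein Tnc, also listed for radial glia, measured 586, 546 and 409.7 CPM against 129, 124 and 107 CPM. Crym, a thyroid hormone-binding protein, differed by 0.97 (SE 0.14) and the complement gene C4b by 1.61 (SE 0.24). Among 24 genes of radial glia and progenitors, 9 were higher in the superficial and 2 in the deep layer, the former including Id1 (1.72, SE 0.13), Id3 (1.92, SE 0.12) and Hopx (1.28, SE 0.17).

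Oligodendrocyte precursors and cells starting to differentiate were on the deep side. Of 18 listed genes 14 were higher in the deep and 0 in the superficial layer, with a median of -0.62. Gpr17 (ENSMUSG00000052229), a receptor of precursors committed to differentiate, measured 64.4, 59.2 and 59.6 CPM in superficial and 221, 217 and 173 CPM in deep libraries (log2 difference -1.74, SE 0.11, edgeR adjusted p = 1.45e-09). Deep values were over 2-fold higher in every library. Sox10, the factor of the whole lineage, measured 45.1, 49.7 and 45.4 CPM against 101, 103 and 101 CPM (log2 difference -1.12, SE 0.07, edgeR adjusted p = 1.72e-09). Genes of newly formed oligodendrocytes had large differences, with Neu4 at -3.07 (SE 0.23), Enpp6 at -2.48 (SE 0.51) and Bcas1 at -1.70 (SE 0.16). Olig1, a factor of all stages, differed by -0.58 (SE 0.10).

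The balance of calls among myelin genes proper depended on superficial library 1. With all libraries the list gave 4 superficial and 5 deep calls of 19. Mbp did not pass, at -0.11, and its layers overlapped. Without superficial library 1 the list's calls were 2 and 7 and its median moved from -0.01 to -0.53. Mbp was then called higher in the deep layer, at -0.89 (SE 0.17, edgeR adjusted p = 0.0019). Mag, an adhesion protein of myelin, went from -0.27 without a call to -0.97 (SE 0.22, edgeR adjusted p = 0.0045). Mobp did not pass in either case, at 3.59 with and -0.53 without that library. Myrf, the factor that switches on myelin genes, and Fa2h, a lipid enzyme, were called in the deep layer with all libraries, at -1.57 (SE 0.22) and -1.66 (SE 0.20). Cldn11, also a gene of the arachnoid barrier, was on the superficial side at 2.04 (SE 0.38). Mog was called there too, with 10.85, 8.2 and 6.9 CPM against 5.5, 4.23 and 5.54 CPM (log2 difference 0.76, SE 0.18, edgeR adjusted p = 0.00478). Both kept their calls without superficial library 1, Mog at 0.57 (SE 0.18, edgeR adjusted p = 0.0448). Mal (1.07, SE 0.32) and Aspa (0.59, SE 0.19) were superficial calls that were lost without it, at 0.47 and 0.57.

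Microglia were on the deep side as well. Of 20 listed genes 17 were higher in the deep and 1 in the superficial layer, with a median of -0.64. Cx3cr1 (ENSMUSG00000052336), the fractalkine receptor, measured 36.95, 35.1 and 29.9 CPM in superficial and 70.6, 69.4 and 61.7 CPM in deep libraries (log2 difference -0.98, SE 0.09, edgeR adjusted p = 2.30e-07). P2ry12, the purine receptor of microglia, measured 22.4, 23.4 and 21.7 CPM against 46.1, 44.8 and 43.3 CPM (log2 difference -0.99, SE 0.08, edgeR adjusted p = 2.66e-08). Deep libraries were all higher, with little spread. Trem2 differed by -1.07 (SE 0.12), P2ry13 by -1.03 (SE 0.16) and the complement gene C1qa by -0.63 (SE 0.09). Tmem119, another microglial gene, measured 10.7, 11.5 and 9.69 CPM against 11.03, 12.5 and 10.9 CPM and overlapped, without a call. Olfml3 was on the superficial side at 0.89 (SE 0.14).

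Macrophages of the brain borders, by contrast, were on the superficial side with all 12 listed genes called there, at a median of 3.38. Lyve1 (ENSMUSG00000030787), a hyaluronan receptor of border macrophages and lymphatics, measured 16.4, 13.03 and 8.32 CPM in superficial and 0.795, 0.725 and 0.413 CPM in deep libraries (log2 difference 4.29, SE 0.44, edgeR adjusted p = 1.56e-05). Mrc1, the mannose receptor, measured 30.8, 23.97 and 17.2 CPM against 3.91, 4.83 and 4.43 CPM (log2 difference 2.45, SE 0.35, edgeR adjusted p = 0.000336). Superficial libraries were all above the deep ones, and library 1 was the highest. Pf4 differed by 4.51 (SE 0.51), F13a1 by 4.01 (SE 0.41) and Cd163 by 1.65 (SE 0.32).

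Meningeal fibroblasts gave 25 superficial and 0 deep calls of 29, and their genes summed to 1095 to 1717 CPM in superficial and 158 to 178 CPM in deep libraries. Col1a2 (ENSMUSG00000029661), a chain of fibrillar collagen, measured 314, 254 and 206 CPM in superficial and 25.1, 26.7 and 21.9 CPM in deep libraries (log2 difference 3.39, SE 0.30, edgeR adjusted p = 1.13e-05). Slc13a4, a sulfate transporter of the meninges, measured 27.6, 22.6 and 17.8 CPM against 0.509, 0.514 and 0.468 CPM (log2 difference 5.50, SE 0.51, edgeR adjusted p = 1.29e-05). The superficial libraries ran in the same order in both genes, library 1 highest and library 3 lowest. The share of pia that came with the superficial tissue is not given in the labels. Genes of dividing cells, border macrophages and most of the signals below were also on the superficial side. Not all kept this order of libraries, and the part of the meninges in them was not tested.

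Vessels were on the same side with smaller differences. Of 20 endothelial genes 14 were higher in the superficial and 1 in the deep layer, with a median of 0.72. Cldn5, a tight junction protein, measured 129.5, 144 and 141 CPM in superficial and 64.1, 71.0 and 70.3 CPM in deep libraries (log2 difference 1.01, SE 0.10, edgeR adjusted p = 4.31e-07), and Cdh5, the cadherin of endothelium, differed by 1.41 (SE 0.16). The layers of Cldn5 were apart by about 2-fold. Mfsd2a, a lipid transporter of brain capillaries with a barrier, was the gene on the deep side, with 39.2, 43.1 and 43.1 CPM against 60.2, 59.2 and 60.02 CPM (log2 difference -0.52, SE 0.07, edgeR adjusted p = 2.03e-05). Mural genes gave 5 superficial and 1 deep calls of 15. Acta2, the actin of smooth muscle, differed by 2.35 (SE 0.25) and Vtn by 2.45 (SE 0.17), while Pdgfrb, the receptor of pericytes, did not pass (0.13, SE 0.21). The superficial mural count was 3 when any saline library other than superficial library 3 was left out. Red blood cell genes summed to 149 to 231 CPM in superficial and 127 to 185 CPM in deep libraries, which overlapped.

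Signals known from the meninges and the dorsal midline were on the superficial side. Of 22 genes of the BMP and TGF-beta pathways 15 were higher there and 1 in the deep layer, with a median of 0.79. Besides the ligand Bmp6, given above, Gdf10 measured 34.9, 44.8 and 29.2 CPM in superficial and 4.45, 3.08 and 3.22 CPM in deep libraries (log2 difference 3.34, SE 0.20, edgeR adjusted p = 4.21e-09). Targets and inhibitors of BMP signals were on the same side, with Smad6 at 2.17 (SE 0.21), Id1 and Id3 as given above, Nog at 1.30 (SE 0.12) and Chrd at 0.65 (SE 0.13). Bmp3 was on the deep side at -1.15 (SE 0.20). Of 15 retinoic acid genes 7 were superficial and 1 deep. Aldh1a2, the enzyme that makes retinoic acid in the meninges, measured 28.2, 26.8 and 19.9 CPM against 0.731, 1.54 and 0.799 CPM (log2 difference 4.61, SE 0.47, edgeR adjusted p = 2.77e-05), and Aldh1a1 differed by 3.14 (SE 0.32). The retinoic acid receptor Rara (0.64, SE 0.10) was also higher in the superficial layer.

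The Wnt pathway gave 11 superficial and 4 deep calls of 27, with a median of 0.30. Axin2, a feedback target of Wnt, measured 132, 126 and 117 CPM in superficial and 65.6, 66.8 and 65.9 CPM in deep libraries (log2 difference 0.92, SE 0.09, edgeR adjusted p = 4.83e-07). Its layers differed by nearly 2-fold without overlap. The ligand Wnt3 (0.75, SE 0.08), the receptor Fzd10 (1.04, SE 0.09) and the enhancer Rspo2 (1.46, SE 0.19) were on the superficial side, while Wnt7b (-0.59, SE 0.09) and the inhibitor Sfrp2 (-0.74, SE 0.10) were on the deep side.

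Axon guidance genes were spread over both layers. Of 48 semaphorins, plexins, slits, netrins and their receptors, 7 were higher in the superficial and 19 in the deep layer, with a median of -0.10, and the superficial count was 11 with the block in the saline libraries alone. Robo3 (ENSMUSG00000032128), which controls the crossing of the midline, measured 12.5, 14.2 and 12.3 CPM in superficial and 1.27, 0.544 and 0.716 CPM in deep libraries (log2 difference 3.95, SE 0.26, edgeR adjusted p = 1.56e-09). Nrp2, a semaphorin receptor, measured 424, 405 and 396 CPM against 150.0, 122 and 114 CPM (log2 difference 1.66, SE 0.10, edgeR adjusted p = 3.14e-10). Superficial values were over 2-fold higher throughout. The ligand Sema3a differed by 2.59 (SE 0.39). On the deep side stood the receptors Plxna4 (-1.03, SE 0.17) and Plxnc1 (-0.83, SE 0.10) and the ligands Ntn1 (-0.87, SE 0.14), Slit1 (-0.74, SE 0.15) and Sema3e (-1.05, SE 0.18).

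The Eph receptors and ephrins, known for guiding retinal axons to their place in the map, gave 5 superficial and 4 deep calls of 22, and 9 deep calls with the block in the saline libraries alone. Efna2 and Efna5, the ephrins best known from the collicular map, did not pass, but were called higher in the deep layer in that fit, at -0.21 and -0.22 (edgeR adjusted p = 0.00093 and 0.00464). Efna5 measured 59.1, 27.5 and 52.9 CPM in superficial and 55.9, 36.1 and 65.1 CPM in deep libraries, and Efna2 57.7, 55.3 and 72.6 CPM against 64.1, 67.2 and 78.5 CPM. In both the layers overlapped, and both layers of Efna5 were lowest in library 2. Those on the superficial side included Ephb4 (1.13, SE 0.12) and Efnb2 (0.75, SE 0.11), which are also genes of vessels, with Efnb1 (0.89, SE 0.13) and Efna1 (0.93, SE 0.15).

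Adhesion and synapse-organizing genes also split. C1ql2, a secreted C1q-like organizer of glutamate synapses, measured 104, 99.3 and 103 CPM in superficial and 19.3, 18.2 and 18.1 CPM in deep libraries (log2 difference 2.46, SE 0.10, edgeR adjusted p = 3.34e-12). Pcdh20, a protocadherin, measured 44.3, 48.97 and 44.2 CPM against 13.9, 13.5 and 14.1 CPM (log2 difference 1.73, SE 0.09, edgeR adjusted p = 3.28e-11). Superficial libraries were over 2-fold above deep ones in both. Cdh7 differed by 1.08 (SE 0.11). On the deep side, besides Cbln2, were C1ql1 (-1.02, SE 0.15), also a gene of oligodendrocyte precursors, Lrrtm4 (-0.72, SE 0.12) and Cdh13 (-0.63, SE 0.08). Of 38 synapse organizers 6 were superficial and 16 deep, the latter 10 without deep library 1 or superficial library 2, and of 28 cadherins and protocadherins 7 and 11.

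Genes that follow neuronal activity had no common direction, with 7 superficial and 5 deep calls of 28 and a median that changed sign with the scaling. Fosl2 measured 28.9, 31.1 and 26.9 CPM in superficial and 11.6, 11.2 and 11.7 CPM in deep libraries (log2 difference 1.33, SE 0.09, edgeR adjusted p = 3.19e-09), and Fos, the classic immediate early gene, differed by 0.70 (SE 0.16). Nptx1, a secreted pentraxin of synapses, was on the deep side at -0.70 (SE 0.09), and Vgf at -0.56 (SE 0.10). Ret, a receptor for ligands of the GDNF family, was higher in the deep layer at -0.64 (SE 0.12).

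Housekeeping pathways gave few calls in the fit of all 14 libraries. Of 33 respiratory chain genes 0 were superficial and 1 deep, and of 21 for cholesterol synthesis 0 and 1, both below the 18.4% called among all genes. With the block in the saline libraries alone the deep counts were 15 and 8, where 3587 of all 18787 tested genes were called deep. Few calls therefore hold for the first fit only. Interferon response and MHC class I genes gave 4 superficial and 0 deep calls of 23. This is near the 18.4% called among all genes, so no direction is given for the list. Ifitm3, a gene also active in meningeal and vascular cells, was 1 of the 4, at 2.06 (SE 0.17).

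The layer difference was also measured in the 8 libraries injected with cbx, which share no library with the saline contrast. There 6544 genes (32.2%) were called. Of the 3739 genes called after saline, 3679 had the same sign after cbx and 3182 were also called in that direction, which is 85.1% of the saline calls and 48.6% of the cbx calls. Only Mir487b and the antisense gene Gm44199, picked out after their values were seen, were called in opposite directions. Both had low levels in the saline libraries, at most 1.42 CPM. Pou4f2 differed by -2.62 after saline and -2.04 after cbx, Nefm by -2.0 and -2.57, Cx3cr1 by -0.98 and -0.60, and Col1a2 by 3.39 and 4.38. The test of the difference between the 2 layer contrasts called 0 genes (0.0%; edgeR, smallest adjusted p = 0.1045), with 1699 at an unadjusted p below 0.05. Other settings called 60 with DESeq2, 61 with the replicate block and 256 without the filter on low counts.

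**Figure D5:**
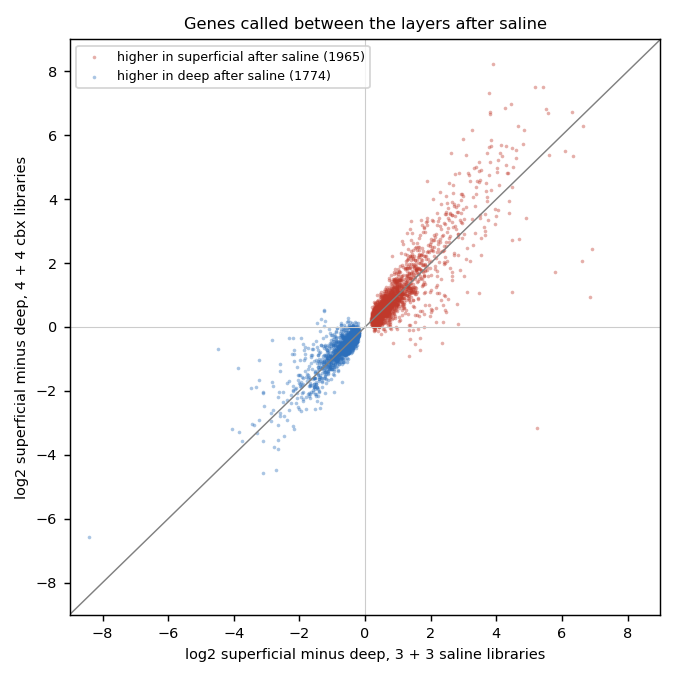
Log2 difference between the layers (superficial minus deep) of the 3739 genes called after saline, in the saline libraries (horizontal) and the cbx libraries (vertical), red for genes higher in the superficial and blue for genes higher in the deep layer; the grey diagonal marks equal differences. Of these genes 3679 have the same sign on both axes.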

How the data were processed

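Bulk, poly-A selected RNA was sequenced in 14 libraries. The authors deposited raw read counts, 1 table of 55359 Ensembl IDs per library. Per the submitters' processing notes, STAR 2.7.9d and featureCounts of Subread 2.0.1 were used, and the builds GRCm39 and mm10 are both named. Which annotation and strand setting lie behind the counts is not given in the sources used here. Reads of genes that overlap, or that lie antisense to each other, may therefore be mixed, and values of near-identical copies are uncertain. Symbols matched 52083 IDs, with 98.7% of counts.

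Counts were analysed with edgeR 4.0.16 (R 4.3.3): filterByExpr, TMM factors, a robust quasi-likelihood fit of 4 group means to all 14 libraries (10 residual degrees of freedom), and Benjamini-Hochberg adjustment at 0.05. The SE of a log2 difference is its size divided by the square root of F. On simulated counts the test found 12%, 50%, 82% and 98% of 1.2-, 1.5-, 2- and 4-fold changes and called 0.0348% of unchanged genes. The simulation changed only 50 of 20330 genes per fold and drew libraries independently. In the data 18.4% of genes were called and layers of a number deviated together, so these rates need not hold there.

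The layers were paired by the numbers in the titles, which the labels do not explain. In saline libraries of 1 number, departures from the group mean correlated at 0.376, 0.180 and 0.288 over 15102 genes. Between different numbers the correlations were -0.268 to -0.0359. In cbx libraries they were 0.191 to 0.401 within a number and -0.381 to 0.181 between numbers. Whether shared brains or shared handling lay behind this was not tested. Replicates differed by a chi-square of at least 7.66 per gene, so none was a library deposited again.

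The 47 gene lists and their members were chosen with earlier results of these data known. Genes were named by rule: among called protein-coding genes without overlap between the layers, the 15 largest differences per side with a mean of at least 1 CPM, the 10 most abundant of at least 2-fold, up to 4 members per list with the smallest p, and members named for their role. Alternatives were median-of-ratios, upper quartile and total-count scaling, other count filters, DESeq2 1.42.0, limma-voom (limma 3.58.1), the 6 saline libraries alone, a replicate block, removal of length and GC trends, a test against a fold of 1.2, and each saline library or pair left out.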

Additional observations from a re-analysis of the deposited data

Results flagged for a closer look

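The total count of cbx deep library 1, 48776827, stood apart from the other 3 libraries of its group. Its gap to the nearest was 0.878 of the group's range, above Dixon's 95% critical value for 4 samples. Such a gap arises by chance in about 1 of 20 groups. The cbx superficial group gave 0.249. The saline groups have 3 libraries each and were not examined this way. The library enters the estimate of the spread and the cbx layer difference only.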

How the results depend on the processing

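The count of 3739 genes called between the layers after saline was 1780 against a fold of 1.2 (1014 superficial, 766 deep). With the replicate block it was 4662, and 3688 of the 3739 genes were called there too. With the block in the 6 saline libraries alone it was 6777 (3190 superficial, 3587 deep). Total-count scaling gave 2959 superficial calls, against 1965. With a library or a pair left out the counts were 2019 to 3406 in all, 1076 to 1792 superficial and 943 to 1614 deep. Without pair 1 they were 2310, 1219 and 1091. The cbx layer count of 6544 was 3094 against a fold of 1.2. The interaction called 0 genes, 60 with DESeq2, 256 without the count filter and 61 with the replicate block. The causes were not tested. Of 491 called members of the lists and named genes, 309 kept call and direction in all 21 alternatives and 333 with each library or pair left out, and 0 reversed. At this depth and number of libraries, simulated differences of 1.2- and 1.5-fold were found only in part. The test takes libraries as independent although the layers of a number deviated together, and pools of 3 brains hide the spread between pups.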
